A study of Homo sapiens with 18 samples.

Results

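WiDr cells that had been transduced with a control short hairpin RNA (shRNA) were compared with vehicle-treated WiDr cells across all genes. The members are the 3 arrays titled as control hairpin and the 3 titled as vehicle control of this line, 6 of 18 arrays in all. They are defined by their titles, but the comparison was chosen with earlier results of these data known. WiDr is an established human colorectal cancer line that carries an activating BRAF mutation and is regarded as a derivative of HT29. The other WiDr arrays of the study came from cells with an shRNA against IKKα (CHUK, 3 arrays) and from cells given the RAF inhibitor AZ628 (3 arrays). HT29, the second colorectal line, was sampled with vehicle and with AZ628 (3 arrays each). The labels tie no vehicle to the hairpin cells and no hairpin to the vehicle cells, so hairpin, vehicle and any batch in which a group was handled cannot be told apart. The hairpin sequence, the vector, the selection, whether transduced cells were a pool or a clone, the solvent and the times are not given in the sources used here. No source says whether replicates were grown separately, so the p-values reflect array-to-array scatter that could be purely technical.

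An shRNA is transcribed inside the cell from a delivered construct, exported by exportin 5 (XPO5), cut by Dicer (DICER1) and loaded into an Argonaute protein (AGO2), and a control hairpin goes through the same steps without a chosen target. Cells sense double-stranded RNA through RIG-I (RIGI), MDA5 (IFIH1), PKR (EIF2AK2), TLR3 and the oligoadenylate synthetases, and foreign DNA through cGAS and STING. These sensors can induce interferons, which act through receptors and JAK kinases on a shared set of antiviral genes. Early response genes such as FOS and EGR1 are transcribed within minutes of growth factor signalling or handling of cells and their transcripts are short-lived. Colon epithelial lines keep part of the absorptive (enterocyte) and secretory (goblet) programmes, which oppose the Wnt-driven stem cell programme in the intestine.

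The arrays gave log2 signals, in which a step of 1 is a 2-fold change, for 18132 genes with 1 probe set each. Correlations over all genes ran from 0.9975 to 0.9984 among vehicle arrays, from 0.9980 to 0.9985 among control shRNA arrays and from 0.9939 to 0.9963 between the groups. The first principal component of the 6 arrays held 61.8% of their variance. The groups also differed in how the arrays as a whole read. The mean of the 11 GC-rich background control probe sets was 6.28 to 6.39 with control shRNA and 6.48 to 6.80 with vehicle, against 6.57 to 6.88 in the 9 arrays that held neither vehicle nor a hairpin of WiDr, and 6.31 to 6.60 with IKKα shRNA. The standard deviation of all signals of an array was 2.60 to 2.61 with control shRNA and 2.52 to 2.58 with vehicle. With genes split into 4 equal bins from dim to bright, the median log2 difference was -0.11, -0.15, 0.05 and 0.04, so small falls of dim genes stand beside a shift of dim genes as a class. An alternative added after the data were seen enters the background mean as a covariate in the model, and its counts are given beside the lists described at length. Vehicle replicate 1 had an actin 3′ minus 5′ signal, a sign of RNA quality, of 2.01, against 1.36 to 1.59 in the other 5 arrays, and stood apart on the second component of the 6 arrays. Its part in the results was not tested beyond leaving it out, which gave 4171 calls.

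The differences were many and small, with a short list of large rises. At an adjusted p under 0.05 (limma, Benjamini-Hochberg over all genes), 4023 of 18132 genes were called (22.2%), 2099 of them higher with control shRNA (11.6%) and 1924 lower (10.6%). Of the calls, 98.2% were under 2-fold, and the median difference over all genes was -0.04. In the 4 bins from dim to bright, 45, 345, 956 and 753 genes were called higher and 372, 825, 418 and 309 lower. Most higher calls were thus of brighter genes, so the share over all genes is a low yardstick for lists of bright genes. At 2-fold or more, 66 genes were higher (0.364%) and 5 lower (0.0276%), the 5 being EGR1, FOS, CXCL8, TULP3 and DUSP1. Of the 66, 23 were in the lists of interferon-stimulated, sensor, restriction or antigen presentation genes, 8 in the differentiation lists and 35 in neither. In 440 genes (2.43%) the call was higher and all 3 control shRNA arrays lay above the other 15 arrays, and in 462 (2.55%) the call was lower and they lay below them. The count of 4023 fell to 2309 without vehicle replicate 2, to 2614 without vehicle replicate 3 and to 2052 with the background mean as a covariate. The count of lower calls also fell to 1248 and 1193 without control shRNA replicates 2 and 3. The 2-fold count stayed between 71 and 80 when any 1 array of either group was left out. The plot of all genes shows the interferon-stimulated list spread above the cloud and a few early response genes below it.

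**Figure D1:**
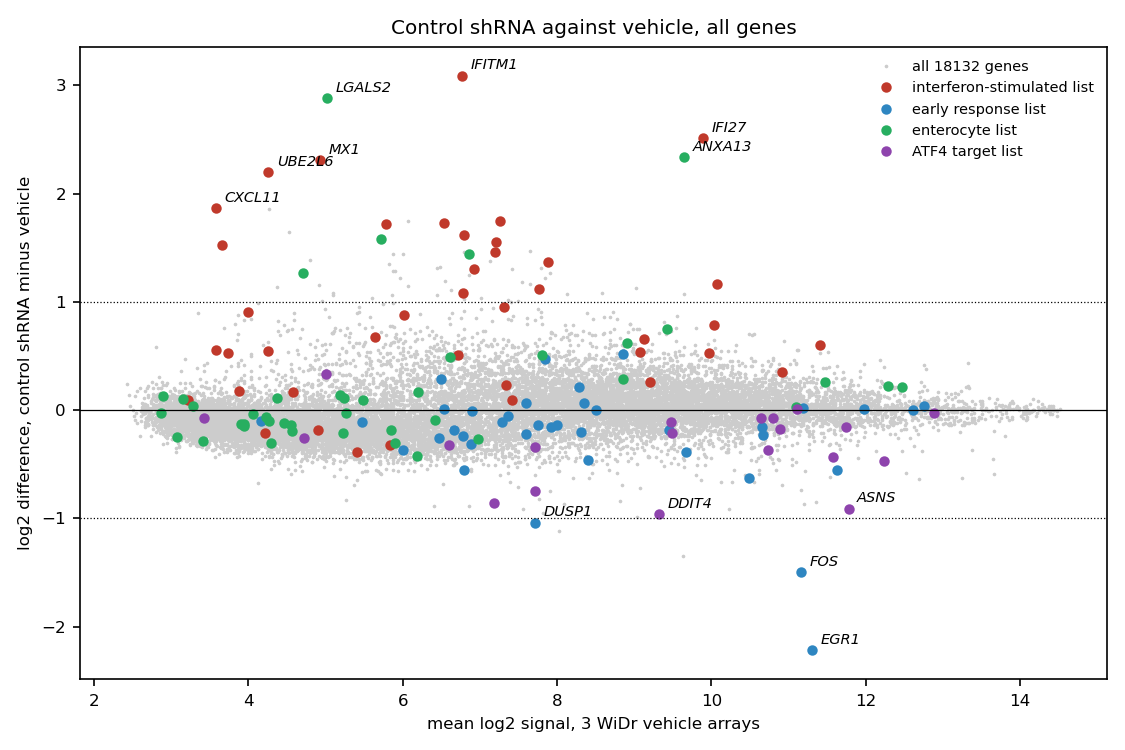
Log2 difference of control shRNA minus vehicle (vertical axis) against the mean log2 signal of the 3 vehicle arrays (horizontal axis) for 18132 genes in grey, with 4 gene lists in colour. Dotted lines mark 2-fold; IFITM1 at 3.09 and EGR1 at -2.22 are the ends of the range.

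The targeted gene of the other hairpin was looked at first as a check of the labels. CHUK read 9.67, 9.29 and 9.50 with vehicle and 9.68, 9.45 and 9.78 with control shRNA, so both groups overlapped (difference 0.15 ± 0.12 (SE), adjusted p = 0.401). With IKKα shRNA it read 7.68, 7.23 and 7.65, below every array of both groups. IKBKB and IKBKG, which encode the partner kinase IKKβ and the scaffold NEMO, differed by -0.01 and 0.07 between control shRNA and vehicle, neither called. Epithelial markers were bright in both groups, with EPCAM, an epithelial adhesion protein, at 13.09 to 13.35 with vehicle and at 13.24 to 13.47 with control shRNA, and the intestinal keratin KRT20 at a mean of 12.29 and 12.51. The intestinal markers CDH17, GPA33, CDX1 and CDX2, named after their values were seen, were dim, with vehicle means of 5.24, 5.43, 5.49 and 6.20. Of the 12 epithelial markers 5 were called higher (41.7%, beside 11.6% of all genes) and none lower, the largest being VIL1 at 0.75 (3 probe sets from -0.09 to 0.75). The count was 2 to 4 when 1 array was left out and 1 with the background covariate. The array mean was 10.21 to 10.29 with vehicle and 10.42 to 10.47 with control shRNA. Of 8 fibroblast markers 1 was called higher (LUM) and 2 lower (PDGFRB and THY1), with array means of 4.21 to 4.41 and 4.19 to 4.21. Of 7 blood markers 2 were called higher (CD14 and CD68) and 1 lower (HBB), with array means of 4.97 to 5.01 and 4.95 to 5.10, and PTPRC, the common leukocyte antigen, stayed at 3.06 to 3.31 in all 6 arrays. Of 6 endothelial markers 1 was called higher (TEK), with array means of 5.09 to 5.16 and 5.02 to 5.14.

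Of the 34 gene lists, interferon-stimulated genes held the most rises. Since the RNA is from bulk cultures, more cells expressing a gene and more RNA per cell cannot be told apart. Of the 41 measured members 33 were called higher (80.5%, beside 11.6% of all genes) and 3 lower, the median difference was 0.79, and 17 rose at least 2-fold. The count was 30 to 32 when 1 array was left out and 32 with the background covariate. In 18 members all 3 control shRNA arrays lay above the other 15 arrays. IFITM1, a membrane protein that restricts virus entry, read 6.72, 6.86 and 6.73 with vehicle and 9.74, 9.94 and 9.88 with control shRNA. The groups were far apart and no other array of the study passed 7.91. Its difference of 3.09 ± 0.17 (SE), 8.49-fold, was the largest of all genes (adjusted p = 2.89e-09). IFI27, a small mitochondrial protein induced by interferon, read 9.78, 9.97 and 9.92 against 12.30, 12.50 and 12.39, a 5.70-fold rise. MX1, a dynamin-like antiviral GTPase, read 4.85, 5.12 and 4.81 against 7.16, 7.35 and 7.19, a rise of 2.31 ± 0.13. UBE2L6, the conjugating enzyme for ISG15, read 4.16, 4.42 and 4.20 against 6.29, 6.55 and 6.53, a rise of 2.20 ± 0.12. In all 3 genes the lowest control shRNA array stood far above the highest vehicle array.

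Other members followed with smaller steps. CXCL11, a chemokine for T cells, rose from 3.55, 3.72 and 3.49 to 5.31, 5.38 and 5.69, a signal that stays near the dim end of the array. The RNA helicase DDX60 rose by 1.73 ± 0.13 and the ubiquitin ligase HERC6 by 1.72 ± 0.11. IFIT1 and IFIT2, which bind viral RNA ends and translation factors, rose by 1.46 ± 0.09 and 1.62 ± 0.12. IFI44 rose by 1.75 ± 0.08, but its 6 probe sets ran from -0.03 to 1.85. ISG15, the ubiquitin-like modifier itself, moved less, from 10.02, 10.07 and 10.02 to 10.80, 10.90 and 10.78 (0.79 ± 0.06, adjusted p = 1.05e-07). Among members named after their values were seen, IFI6 rose by 1.55, HERC5, the ligase that attaches ISG15, by 1.53, IFITM3 by 1.37, IFIT3 by 1.30, the virus tether BST2 by 1.17 and IRF9, a subunit of the interferon-activated transcription complex, by 0.95. IRF1, an interferon-γ-induced factor, rose by 0.23 ± 0.05, and the guanylate-binding GTPases GBP1 and GBP2 by 0.56 and 0.68, GBP1 from a dim vehicle mean of 3.58. Which interferon, if any, lay behind the rises of the list was not tested. The list also held members that did not rise. IFI44L, SP110 and XAF1 differed by 0.17, 0.09 and -0.18 without a call, while, named after their values were seen, TRIM22 fell by 0.39, CMPK2 by 0.32 and SAMD9L by 0.21. Of the 3 lower calls, all on dim probe sets, 1 to 2 were left when 1 array was left out and 1 with the background covariate. CMPK2 and RSAD2, neighbours often induced together, had probe sets that disagreed, from -0.32 to 2.09 for CMPK2 and from 0.18 to 1.26 for RSAD2. The brightest probe set of RSAD2 was not called (difference 0.18, adjusted p = 0.262).

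**Figure D2:**
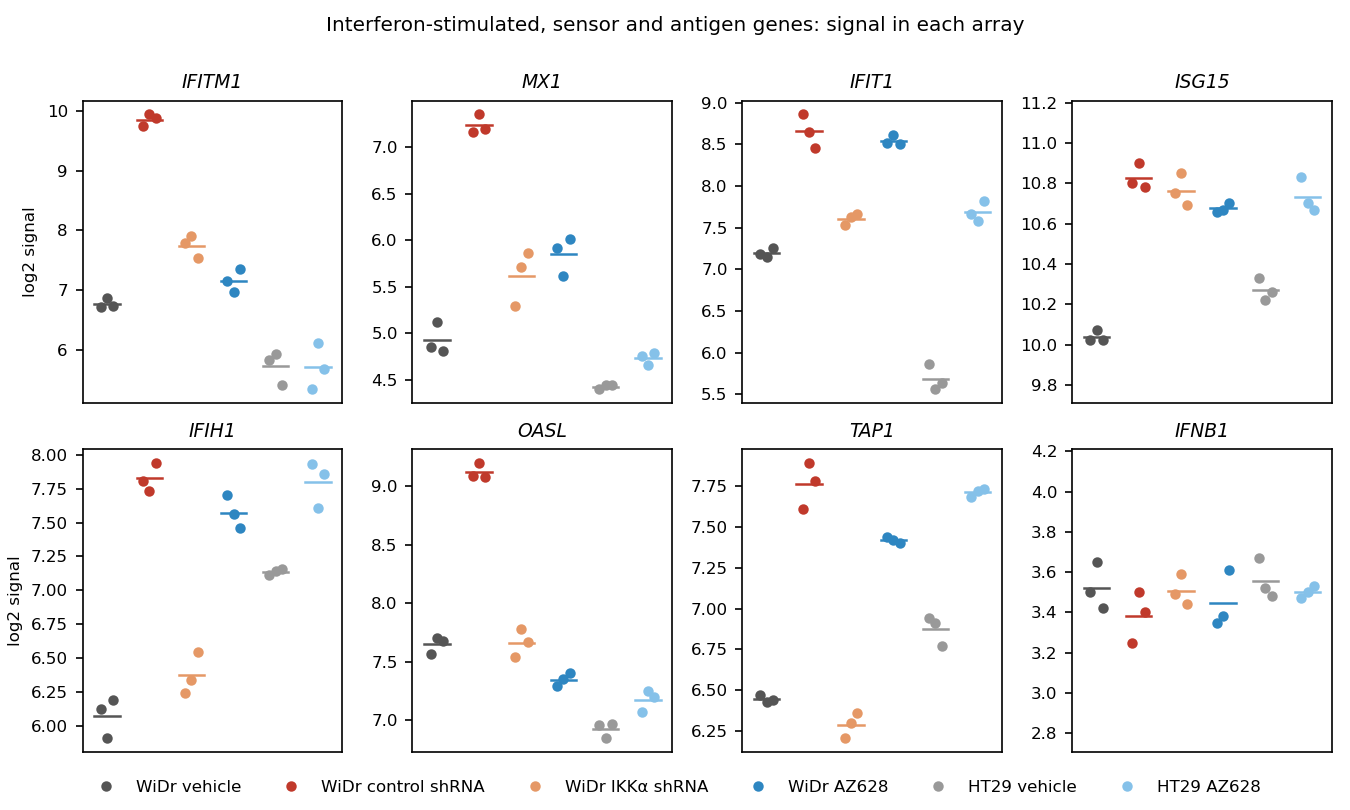
Log2 signal of 8 genes in each of the 18 arrays (points) with the mean of each group of 3 (line), in the order WiDr vehicle, control shRNA, IKKα shRNA and AZ628, then HT29 vehicle and AZ628; vertical scales differ. For IFITM1, MX1 and OASL the control shRNA arrays lie above all others, ISG15 is about as high with IKKα shRNA, and IFNB1 stays between 3.25 and 3.67 throughout.

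Promoter sequence was set beside these values to show what the members share outside the arrays. The windows are those of RefSeq on GRCh38.p14, 250 bases before to 50 after each gene's start. The core of the interferon-stimulated response element, searched as TTTCNNTTT on both strands, was present in 24 of the 29 called-higher members with an entry (82.8%) and in 1615 of 14425 genes tested (11.2%). It was also present in 5 of the 6 other members with an entry (83.3%), so the letters did not separate members that rose from members that did not. The list was written from knowledge of interferon targets, so this share describes the list and not these cells. The stretches just before the start of 4 members are printed because they span the range of the response, from IFITM1 and IFIH1, which were far lower with IKKα shRNA than with control shRNA, to ISG15, which was not. Capitals mark the matches, 2 in IFIT1, 2 that overlap in ISG15 and 1 in each of the others. A further IFITM1 match begins in the last printed bases and runs past the start, and is not marked.
IFIT1, chr10:89392483-89392622, plus strand: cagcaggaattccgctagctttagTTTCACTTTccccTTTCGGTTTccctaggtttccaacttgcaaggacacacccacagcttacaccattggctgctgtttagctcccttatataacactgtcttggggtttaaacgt
ISG15, chr1:1013357-1013496, plus strand: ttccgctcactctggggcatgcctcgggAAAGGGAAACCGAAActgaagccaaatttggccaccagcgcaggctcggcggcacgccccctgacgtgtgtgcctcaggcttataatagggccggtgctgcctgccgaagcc
IFIH1, chr2:162318685-162318804, minus strand: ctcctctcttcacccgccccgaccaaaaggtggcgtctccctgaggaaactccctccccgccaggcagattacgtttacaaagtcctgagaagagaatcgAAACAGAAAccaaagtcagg
IFITM1, chr11:313980-314039, plus strand: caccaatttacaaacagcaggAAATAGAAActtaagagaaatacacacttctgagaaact

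Several sensors of foreign RNA rose as well. Of 23 measured members of the sensor list 12 were called higher (52.2%) and 1 lower, with a median of 0.22, and the count was 10 with the background covariate. IFIH1, which encodes MDA5 and whose promoter is shown above, read 6.12, 5.91 and 6.19 with vehicle and 7.81, 7.73 and 7.94 with control shRNA (1.75 ± 0.10, adjusted p = 3.68e-09). The second IFIH1 probe set gave only 0.16. OASL, an oligoadenylate synthetase-like protein, read 7.57, 7.70 and 7.68 against 9.09, 9.20 and 9.08, and no other array of the study passed 7.78. OAS1, which makes the activator of RNase L, rose by 1.10 ± 0.08 and DHX58 (LGP2) by 0.98 ± 0.12, with 4 DHX58 probe sets from -0.28 to 0.98. EIF2AK2 (PKR) rose by 0.86 ± 0.09, TLR3 by 0.58 ± 0.09 and RIGI by 0.49 ± 0.07. IFI16, a DNA sensor, rose by 0.90 ± 0.16 from a dim 3.18, 3.35 and 3.51. The adaptor MAVS differed by 0.03, the kinase TBK1 by 0.17 and the ligase TRIM25 by 0.10, none of them called. Among members named after their values were seen, TICAM1, the adaptor of TLR3, rose by 0.36 ± 0.08, and the transcription factors IRF3 and IRF7 by 0.24 and 0.22. CGAS and STING1, the DNA-sensing pair, also named after their values were seen, differed by 0.18 and 0.03 without a call, and OAS2 by 0.00 with 5 probe sets from -0.20 to 1.34.

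The interferons themselves did not stand out on these arrays. IFNB1 read 3.50, 3.65 and 3.42 with vehicle and 3.25, 3.50 and 3.40 with control shRNA, overlapping and near the floor of the signal range (difference -0.14, adjusted p = 0.248). IFNL1, a type III interferon, read 4.67, 4.58 and 4.72 against 4.59, 4.46 and 4.48 (adjusted p = 0.236). At such signals RMA compresses differences, so a small change may not be seen. Of the 13 measured ligands, receptors, kinases and feedback inhibitors 4 were called higher and 0 lower, and all 4 were receptor chains. IFNLR1, the type III receptor chain, read 7.65, 7.27 and 7.17 against 7.98, 7.95 and 8.09 (0.64 ± 0.10). IFNAR2, of the type I receptor, rose by 0.60 ± 0.08, IL10RB by 0.30 and IFNAR1 by 0.26. With the background covariate 2 of the 4 calls were left. JAK1 and IFNGR1 differed by 0.10 and 0.06 without a call.

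Antigen presentation genes, many of them interferon-responsive, rose in part. Of 15 measured members 9 were called higher (60%) and 0 lower, with a median of 0.32, and 6 were called with the background covariate. TAP1, the peptide transporter, read 6.47, 6.43 and 6.44 with vehicle and 7.61, 7.89 and 7.78 with control shRNA (1.31 ± 0.07, adjusted p = 1.78e-09). The immunoproteasome subunits PSMB8 and PSMB9 rose by 1.22 ± 0.06 and 1.01 ± 0.12. However, probe sets of PSMB8 ran from -0.10 to 1.47 and those of PSMB9 from -0.02 to 1.01. TAP2 rose by 0.46, the class I heavy chain HLA-C by 0.45 and the loading factor TAPBP by 0.45, the last with 5 probe sets from -0.26 to 0.45. HLA genes are similar in sequence, so their probe sets can cross-hybridise. B2M, the shared light chain, was already at 13.48, 13.46 and 13.48 with vehicle and differed by 0.08 without a call. Of 12 restriction factors 3 were called higher, namely APOBEC3B at 0.69, SAMHD1 at 0.61 and ZC3HAV1 at 0.53, and 2 lower, APOBEC3G at -0.33 and APOBEC3H at -0.28. The APOBEC3G call was lost in 11 of 17 alternatives, among them the background covariate (-0.18, adjusted p = 0.475).

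Parts of the machinery that handles hairpins were called higher by small steps, and of the 5 calls XPO5 was the one that was also made with the background covariate. Of 13 measured members 5 were called higher (38.5%, beside 11.6% of all genes) and 0 lower. With the covariate 1 was called higher and 1 lower. The 5 fell to 2 without control shRNA replicate 3 or vehicle replicate 3, and to 3 without replicate 2 of either group. AGO2 read 9.22, 9.29 and 9.21 with vehicle and 9.48, 9.51 and 9.96 with control shRNA (0.41 ± 0.11, adjusted p = 0.0126, and 0.0537 with the covariate). The third control shRNA array stands apart from the other two. XPO5 read 7.72, 7.68 and 7.66 against 8.0, 8.03 and 8.10, with no overlap (0.36 ± 0.06, adjusted p = 2.90e-04). DICER1 rose by 0.38 ± 0.11, AGO4 by 0.39 and TNRC6B, which recruits the silencing complex's effectors, by 0.38. DROSHA, which cuts primary microRNA transcripts, differed by 0.01.

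The IKKα shRNA arrays, the other hairpin group, are set beside these values. They share the vehicle arrays in the comparison with vehicle, so their values are given side by side and no overlap is computed. The median of the interferon-stimulated list was 0.41 in IKKα shRNA against vehicle, where 22 members were called higher (16.4% of all genes were) and 6 lower (19.8% of all genes). IKKα shRNA against control shRNA called 15.9% of all genes higher and 19% lower. Some members were about as high with either hairpin. ISG15 stood at 10.75, 10.85 and 10.69 with IKKα shRNA, a difference of -0.07 from control shRNA that was not called, and EIF2AK2, OAS1 and BST2 were higher than vehicle by 1.02, 0.95 and 1.02. Others lay with vehicle. OASL read 7.54, 7.78 and 7.67 with IKKα shRNA, overlapping vehicle (difference 0.02), and IFITM3, HERC5 and TAP1 differed from vehicle by -0.01, -0.03 and -0.15. For OASL, IFITM3, HERC5, TAP1, MX1 and IFITM1 the IKKα shRNA arrays were lower than control shRNA by 1.46, 1.38, 1.55, 1.47, 1.61 and 2.11, each called. IFI44 stood at 6.67, 6.54 and 6.63 with IKKα shRNA, below every vehicle array. Among arrays without a hairpin, AZ628 against vehicle in HT29, a comparison that shares no array with the one described, gave 2.0 for IFIT1, 0.66 for IFIH1, 0.84 for TAP1, -0.01 for IFITM1 and 0.25 for OASL, all but IFITM1 called, in a comparison that called 22.5% of all genes higher and 21% lower. AZ628 in WiDr, set against the same vehicle arrays, gave 1.5 for IFIH1, 1.3 for OAS1, 0.98 for TAP1, 0.39 for IFITM1 and -0.3 for OASL. All but IFITM1 were called, where 23.4% of all genes were called higher and 21.1% lower. The list medians there were 0.39 for interferon-stimulated, 0.13 for sensor and 0.57 for antigen presentation genes.

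Early response genes went the other way, led by FOS and EGR1. Of 38 measured members 12 were called lower (31.6%, beside 10.6% of all genes) and 3 higher, with a median of -0.15, and 8 to 11 were called lower when 1 array was left out. EGR1, a zinc finger factor induced by ERK and serum, read 11.11, 11.33 and 11.45 with vehicle and 9.03, 9.05 and 9.17 with control shRNA. The groups did not overlap and the fall was 4.64-fold (-2.22 ± 0.17, adjusted p = 1.84e-07), with all 6 probe sets between -2.35 and -0.98. FOS, the AP-1 subunit, read 11.12, 11.05 and 11.30 against 9.68, 9.55 and 9.75, a 2.82-fold fall. DUSP1, a phosphatase that switches off MAP kinases, read 7.64, 7.67 and 7.84 against 6.52, 6.77 and 6.75, a 2.05-fold fall. IER2 fell by 0.63 ± 0.07, ZFP36, which destabilises cytokine messages, by 0.55 ± 0.11 and the matricellular gene CCN1 by 0.55 ± 0.10. The 3 that rose were KLF4 at 0.52, FOSL2 at 0.47 and, named after its value was seen, IER5 at 0.21. With the background covariate 10 lower calls and 1 higher were made, the latter being KLF4, while FOSL2 was at 0.31 (adjusted p = 0.116). MYC read 12.52, 12.61 and 12.70 against 12.59, 12.61 and 12.63, a difference of 0.00, and TRIB1 and MCL1 differed by 0.04 and 0.01.

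EGR1 and FOS were also low with the other hairpin. EGR1 read 8.70, 8.89 and 8.94 with IKKα shRNA, at -2.46 against vehicle and at -0.24 against control shRNA, the last not called. FOS read 7.82, 7.94 and 8.15, below every control shRNA array, at -3.19 against vehicle. DUSP1 lay between, at 7.22, 7.42 and 7.41. The list as a whole was not lower in IKKα shRNA against vehicle, with a median of 0.05. There 13 members were called lower (19.8% of all genes were) and 10 higher (16.4% of all genes). IER2 and ZFP36 were at -0.81 and -0.49 in that comparison, but CCN1, KLF4 and FOSL2 at 0.73, 1.05 and 1.01. With AZ628 in WiDr, set against the same vehicle arrays, EGR1 and FOS differed from vehicle by 0.32 and -0.19, neither called. MYC changed by -3.98 in that comparison, which called 23.4% of all genes higher and 21.1% lower. In HT29, a comparison that shares no array with the one described, AZ628 changed EGR1 and FOS by -0.73 and -1.69, both called. It called 22.5% of all genes higher and 21% lower. Serum response elements of the CArG type, which bind SRF, were searched in the same promoter windows. They were found in 1 of the 8 called-lower members with an entry (12.5%), in 1 of 19 others (5.26%) and in 1.74% of genes tested. The AP-1 letters TGANTCA were in 0 of the 8, 1 of 19 and 8.23%, and the CRE letters TGACGTCA in 1 of the 8, 3 of 19 (15.8%) and 3.11%. The one promoter with CArG letters among members called lower was that of EGR1, printed here because it fell most, with its 2 CArG boxes in capitals.
EGR1, chr5:138465329-138465478, plus strand: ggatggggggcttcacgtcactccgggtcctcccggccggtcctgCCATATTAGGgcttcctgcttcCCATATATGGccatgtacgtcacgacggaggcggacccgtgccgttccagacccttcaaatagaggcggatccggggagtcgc

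The slower outputs of the MAPK pathway were closer to level. Of 15 measured members 4 were called lower and 2 higher, with a median of -0.04, and 1 to 2 were called lower whichever array was left out. ETV5, an ETS factor driven by ERK, read 9.19, 9.33 and 9.12 with vehicle and 9.16, 9.09 and 9.21 with control shRNA, which overlapped (difference -0.06). DUSP6, the ERK phosphatase, read 11.16, 10.99 and 11.01 against 10.68, 10.65 and 10.48, with no overlap but near the threshold (-0.45 ± 0.16, adjusted p = 0.048). CCND1, cyclin D1, rose by 0.53 ± 0.07. With the background covariate none of the 4 lower calls was made, and DUSP6 was at -0.42 (adjusted p = 0.224). For scale, AZ628 moved DUSP6 and ETV5 by -4.14 and -4.90 in WiDr and by -4.66 and -5.09 in HT29.

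**Figure D3:**
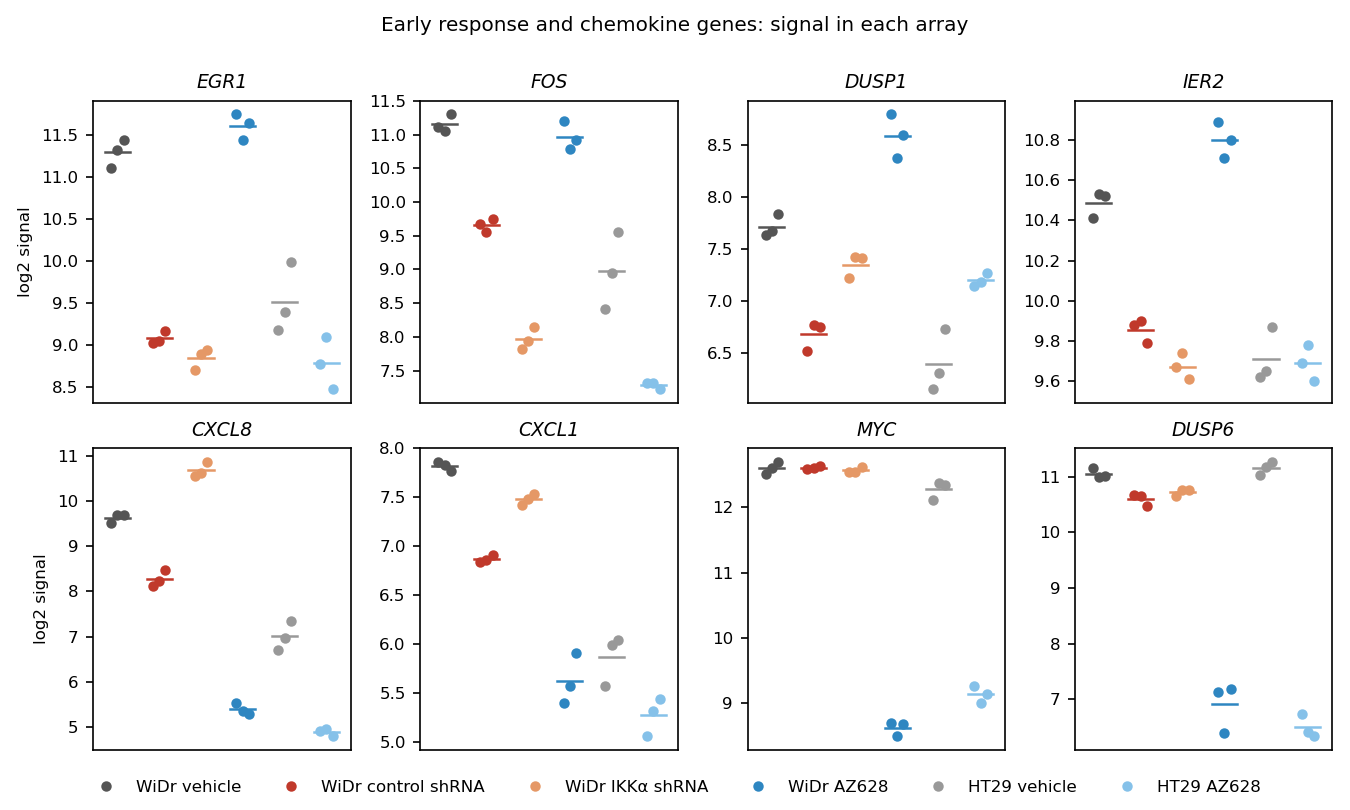
Log2 signal of 8 early response, MAPK and chemokine genes in each of the 18 arrays (points) with group means (lines), groups in the order of the legend; vertical scales differ. EGR1 and FOS are low in both hairpin groups, CXCL8 is low with control shRNA (8.12 to 8.48) and high with IKKα shRNA (10.55 to 10.87), and MYC is level between the first 3 groups.

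Of the NF-κB targets, the CXC chemokines CXCL8 and CXCL1 fell most. CXCL8, which attracts neutrophils, read 9.51, 9.69 and 9.69 with vehicle and 8.12, 8.24 and 8.48 with control shRNA, a 2.55-fold fall (adjusted p = 3.08e-06). CXCL1 read 7.86, 7.83 and 7.77 against 6.84, 6.86 and 6.91, a 1.93-fold fall, and CXCL3 fell by 0.56 ± 0.15. CXCL2, named after its value was seen, differed by -0.35 without a call. NFKBIZ, an inducible nuclear IκB protein, read 11.24, 11.12 and 11.24 against 10.48, 10.48 and 10.01, the third replicate being the lowest, a fall of 0.87 ± 0.17. Of the 19 measured targets 5 were called lower (26.3%, beside 10.6% of all genes) and 2 higher (10.5%, beside 11.6%), with a median of -0.14. With the background covariate 4 were called lower and 3 higher. NFKBIA, the feedback inhibitor read as a standard of NF-κB activity, differed by 0.12 (9.66, 9.54 and 9.56 against 9.81, 9.74 and 9.57), and RELB by 0.08, neither called. The interferon-responsive chemokines went up, CXCL11 by 1.87 and CXCL10, named after its value was seen, by 0.53, its second control shRNA array being the highest. With IKKα shRNA CXCL8 and CXCL1 were at 1.05 and -0.34 against vehicle.

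Absorptive genes rose in a small set of large steps. Of 42 measured enterocyte genes 13 were called higher (31%) and 3 lower, with a median of 0.03, so most of the list was not called. With the background covariate 8 were called higher and none of the 3 lower calls was made, and 1 to 4 were called lower when 1 array was left out. LGALS2, a galectin of the gut epithelium, read 5.13, 4.96 and 4.98 with vehicle and 7.84, 7.99 and 7.86 with control shRNA, a 7.34-fold rise (2.88 ± 0.07, adjusted p = 6.82e-14). ANXA13, an annexin of the apical membrane, read 9.44, 9.74 and 9.75 against 11.95 to 12.02, and no other array passed 9.75. SLC5A1, the sodium-glucose cotransporter SGLT1, read 5.63, 5.63 and 5.89 against 7.19, 7.30 and 7.38. The fatty acid binding protein FABP1 rose by 1.27 ± 0.10 and the membrane mucin MUC13 by 1.44 ± 0.09. The brush border protein VIL1 rose by 0.75 ± 0.06 (3 probe sets from -0.09 to 0.75) and the peptidase DPP4 by 0.62 ± 0.09. The caudal factor CDX2, read for the whole lineage, differed by 0.17 without a call, and sucrase-isomaltase (SI) stayed at 2.71 to 2.97 in all 6 arrays, both named after their values were seen. ADH6, an alcohol dehydrogenase outside the lists, rose by 1.86 ± 0.14 (3 probe sets from 0.33 to 1.86). CD200, an immune checkpoint ligand, rose by 1.65 ± 0.17, its 2 probe sets giving 0.35 and 1.65.

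Secretory and adhesion genes included further rises. Of 24 goblet and secretory genes 6 were called higher (25%, beside 11.6% of all genes) and 3 lower (12.5%, beside 10.6%), with a median of 0.08. The lower calls were 1 with the covariate and 1 to 2 when 1 array was left out. REG4, a secreted lectin of enteroendocrine and goblet cells, read 8.59, 8.47 and 8.68 with vehicle and 9.67, 9.72 and 9.61 with control shRNA (1.08 ± 0.07, adjusted p = 1.32e-08). The mucus protein FCGBP rose by 1.04 ± 0.13, the trefoil factor TFF3 by 0.79 ± 0.09, the gel mucin MUC2 by 0.67 ± 0.12 and TFF1 by 0.59. RETNLB fell by 0.68 ± 0.12, and AGR2, the chaperone for mucins, was at 12.92 in all 3 vehicle arrays and differed by 0.04. Of 10 CEACAM and membrane mucin genes 6 were called higher and 1 lower, with a median of 0.41 (5 higher and 0 lower with the background covariate), including CEACAM6 at 1.30 ± 0.09 (3 probe sets from 0.05 to 1.30) and CEACAM5 at 0.50 ± 0.08. CEACAM genes are near-identical in part, so the signal of one can include another. MUC1 fell by 0.38.

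Among Wnt and stem cell genes LGR5 stood out. LGR5, the R-spondin receptor of crypt stem cells, read 8.30, 7.90 and 8.07 with vehicle and 7.21, 7.14 and 7.32 with control shRNA, a 1.83-fold fall (adjusted p = 0.00281). Of the 19 measured members 2 were called lower, LGR5 and TNFRSF19, and 5 higher, with a median of -0.06. The 5 fell to 2 without control shRNA replicate 3, without vehicle replicate 2 and with the covariate. PROM1 (CD133) rose by 0.60 ± 0.08 and ZNRF3, a Wnt feedback ligase, by 0.37 ± 0.05. AXIN2, the common readout of β-catenin activity, differed by 0.16, RNF43 by -0.06 and SOX9 by -0.06, none called. Squamous genes stayed level, with 1 of 17 called in each direction, SPRR1B at -0.51 and SERPINB5 at 0.30.

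Differentiation genes took different directions with IKKα shRNA, some opposite to control shRNA and some the same. With IKKα shRNA LGALS2 read 3.89, 3.84 and 3.91 and ANXA13 8.42, 8.48 and 8.51, both below vehicle (-1.14 and -1.18). REG4 read 6.72, 6.55 and 6.50 there (-1.99 against vehicle), and FABP1 was at -0.77. LGR5 was low in both, at 6.98, 6.91 and 7.05 with IKKα shRNA. MUC13 and CEACAM6 were high in both, at 1.75 and 4.28 above vehicle with IKKα shRNA. A difference of IKKα shRNA from control shRNA in LGALS2 (-4.02), ANXA13 (-3.52) or REG4 (-3.07) therefore holds a step of control shRNA above vehicle as well as a step of IKKα shRNA below it. In HT29 AZ628 raised LGALS2 by 2.87 and FABP1 by 2.04 and left ANXA13 at 0.15, without a call. In WiDr, against the same vehicle arrays, AZ628 changed LGALS2, FABP1, ANXA13 and REG4 by 1.57, 2.82, -0.39 and -1.33, all called. LGR5 changed by -3.59 there.

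**Figure D4:**
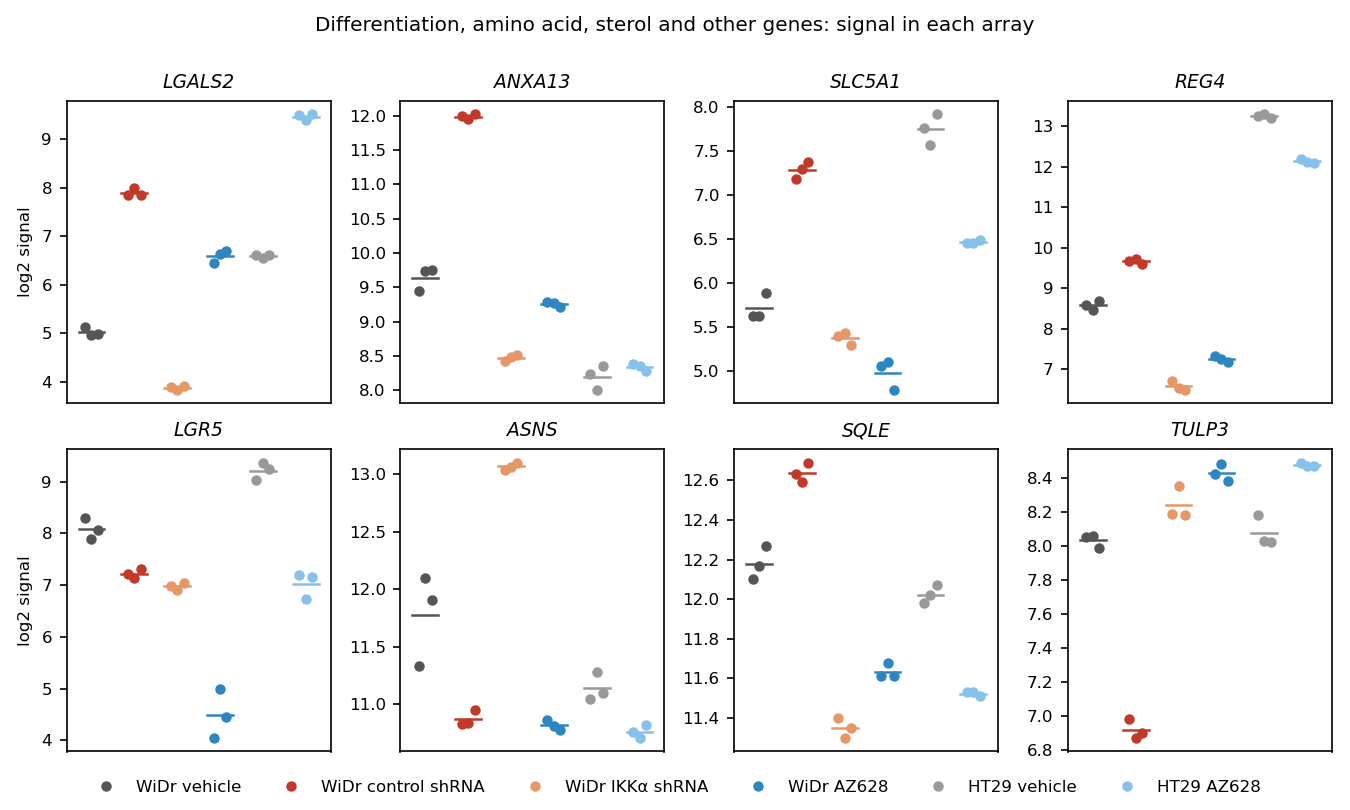
Log2 signal of 8 genes of absorptive and secretory cells, stem cells, amino acid and sterol synthesis and TULP3 in each of the 18 arrays (points) with group means (lines), groups in the order of the legend; vertical scales differ. Control shRNA stands above vehicle and IKKα shRNA below it for LGALS2, ANXA13, REG4 and SQLE, and the reverse holds for ASNS.

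Many targets of ATF4, a factor that drives amino acid supply under stress, were lower. Of 20 measured members 10 were called lower (50%) and 1 higher (VLDLR at 0.33, named after its value was seen), with a median of -0.23, and 8 were called lower with the background covariate. ASNS, asparagine synthetase, read 11.33, 12.10 and 11.91 with vehicle and 10.83, 10.84 and 10.95 with control shRNA, the first vehicle array lying nearest (-0.91 ± 0.13, adjusted p = 1.18e-04). DDIT4, an inhibitor of mTORC1, read 9.17, 9.75 and 9.03 against 8.44, 8.25 and 8.37. CTH, of cysteine synthesis, fell by 0.86 ± 0.12, the glutathione-degrading CHAC1 by 0.75 ± 0.14, MTHFD2, of mitochondrial one-carbon metabolism, by 0.47 ± 0.08 and PSAT1, of serine synthesis, by 0.43 ± 0.11. ATF4 itself differed by -0.03 without a call. In IKKα shRNA against vehicle 17 of the 20 were called higher (16.4% of all genes were) with a median of 0.93, and ASNS read 13.04, 13.06 and 13.10 there. With AZ628 in WiDr, set against the same vehicle arrays, the list had a median of -0.79 and ASNS was at -0.97.

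Sterol synthesis genes were higher by small steps. Of 11 measured members 8 were called higher (72.7%) and 0 lower, with a median of 0.41, and 5 were called with the background covariate. SQLE, squalene epoxidase, read 12.10, 12.17 and 12.27 with vehicle and 12.63, 12.59 and 12.69 with control shRNA (0.46 ± 0.05, adjusted p = 2.13e-05), and MSMO1 and IDI1 rose by 0.57 and 0.55. HMGCS1, the first committed enzyme of the pathway, rose by 0.70 ± 0.15, but with the background covariate by 0.25 (adjusted p = 0.131). INSIG1, the sterol sensor's anchor, rose by 0.41 ± 0.10 and by 0.14 with the covariate (adjusted p = 0.338). SREBF2, the transcription factor of the pathway, differed by 0.06. In IKKα shRNA against vehicle the list had a median of -0.65, with INSIG1 at -2.99.

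Metallothioneins, which bind zinc and copper, were lower, and several of them are dim. Of 8 measured members of the metal response list 6 were called lower (75%) and 0 higher, with a median of -0.35, and 3 were called with the background covariate, without replicate 2 of either group and without control shRNA replicate 3. MT2A, the brightest, read 10.38, 10.15 and 10.28 with vehicle and 9.55, 9.55 and 9.72 with control shRNA (-0.66 ± 0.07, adjusted p = 6.27e-06). MT1E fell by 0.63 ± 0.07. MT1M, MT1H and MT1G, at signals between 5.52 and 7.04 with vehicle, fell by 0.26, 0.33 and 0.36. None of these falls was called with the covariate. The median differences of the 2 dimmer bins of genes, -0.11 and -0.15, do not give the spread of dim genes. These falls were therefore not told apart from the shift of dim genes as a class. Metallothionein genes are near-identical, so their probe sets may not tell them apart.

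Most proliferation genes were not called. Of 28 replication genes 6 were called higher (21.4%, beside 11.6% of all genes) and 1 lower, with a median of 0.08. The largest rise was that of MCM6, a helicase subunit, at 0.42 ± 0.09. With the covariate 2 were called higher, and 3 without replicate 2 of either group. Of 24 mitosis genes 4 were called lower and 0 higher, with a median of -0.02, and CENPA, the centromeric histone, was lowest at -0.38 ± 0.07. With the background covariate 8 of the 24 were called lower, CENPA then at -0.55. TOP2A and AURKA differed by 0.05 and -0.06 without a call. With AZ628 in WiDr MCM6 changed by -2.36.

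Some of the clearest falls lay outside every list. TULP3, which carries receptors into cilia, read 8.05, 8.06 and 7.99 with vehicle and 6.98, 6.87 and 6.90 with control shRNA, while the other 15 arrays lay between 7.99 and 8.49. Its fall of 1.12 ± 0.06 (adjusted p = 2.89e-09) held in all 7 probe sets, between -1.12 and -0.48. SKA2, of the kinetochore, read 9.33, 8.81 and 8.95 against 8.25, 7.78 and 8.09, with no other array below 8.72. RABL6, a small GTPase, read 10.26, 10.22 and 10.21 against 9.39, 9.26 and 9.31, with no other array below 9.80. The 4 probe sets of RABL6 ran from -0.91 to -0.13. ARRDC3, an arrestin-related adaptor, and the lectin CLEC3A each fell by 0.89. Further genes in which all 3 control shRNA arrays were the lowest of 18, named after their values were seen, were the lysosomal protein LAPTM4A at -0.85, the glycosyltransferase GCNT2 at -0.75, the cap-binding protein EIF4E2 at -0.74 and the kinase CDK6 at -0.69. EIF4E2 read 11.11, 11.16 and 11.20 with vehicle and 10.45, 10.37 and 10.42 with control shRNA. Probe sets of LAPTM4A, GCNT2 and CDK6 disagreed, with upper ends of 0.11, 0.16 and 0.03. With IKKα shRNA LAPTM4A, EIF4E2 and TULP3 differed from vehicle by 0.45, 0.02 and 0.21, and RABL6 by -0.36.

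Large rises outside the lists, also named after their values were seen, were of mixed kinds. FABP6, the bile acid binding protein of the ileum, read 7.32, 7.02 and 7.04 with vehicle and 8.51, 8.55 and 8.46 with control shRNA, and 9.03, 9.25 and 9.10 with IKKα shRNA. FGF19, the gut hormone that restrains bile acid synthesis, rose by 1.25 ± 0.11, and no other array passed 6.92. PLAAT4, a phospholipase induced by interferon and retinoids, rose by 1.46 ± 0.09 (3 probe sets from -0.15 to 1.46) and the lysosomal protease CTSS by 1.44 ± 0.10. HEPH, a ferroxidase of enterocyte iron export, rose by 1.10 ± 0.07. CTSS was as high with IKKα shRNA, 1.58 above vehicle, whereas FGF19 was at -0.87 there.

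**Figure D5:**
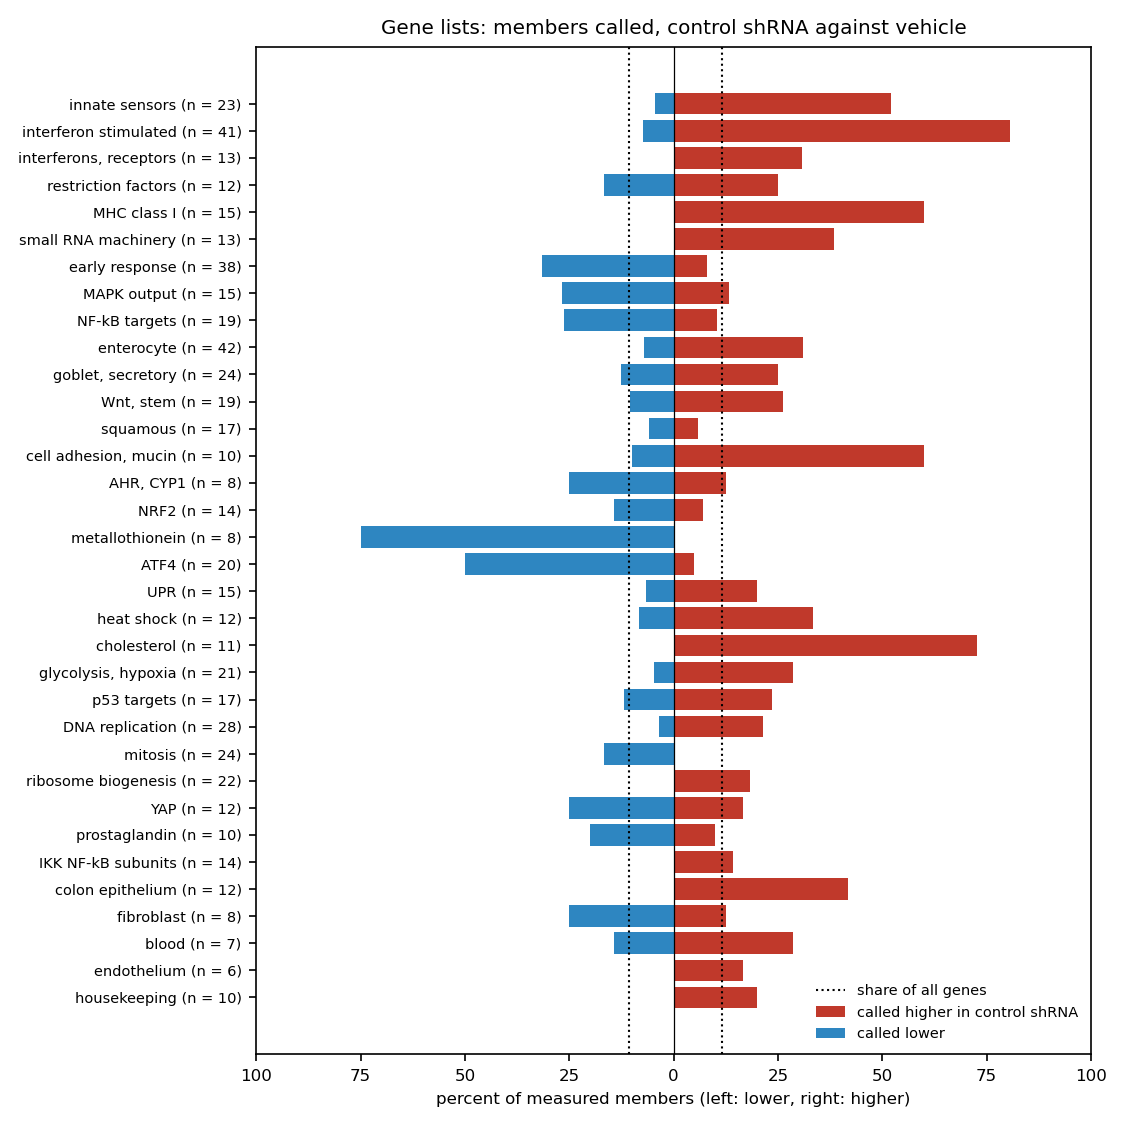
Share of the measured members of each of 34 gene lists called higher (right, red) or lower (left, blue) with control shRNA against vehicle, in percent, with the number of measured members beside each name. Dotted lines mark the shares of all genes, 11.6% higher and 10.6% lower; the interferon-stimulated bar reaches 80.5% on the right and the metallothionein bar 75% on the left.

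In most of the 34 lists the share called higher lay above the 11.6% of all genes, as the plot of list shares shows. Shares called lower lay on both sides of the 10.6% of all genes. Lists in which few members were called included NRF2 targets (1 of 14 higher and 2 lower), prostaglandin genes (1 of 10 higher and 2 lower) and unfolded protein response genes (3 of 15 higher and 1 lower, the 3 being 1 without control shRNA replicate 3 or vehicle replicate 2). Of 12 heat shock genes 4 were called higher, with HSPB1, a small chaperone, at 0.76 ± 0.07 and the other members at 0.20 or less, and 1 to 2 were called higher when 1 array was left out and 2 with the covariate. Of 17 p53 targets 4 were called higher (23.5%) and 2 lower (11.8%), beside 11.6% and 10.6% of all genes. None of the 6 was called with the background covariate, and 0 to 2 were called higher when 1 array was left out. Of 10 housekeeping genes 2 were called higher and 0 lower, with a median of 0.05.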

How the data were processed

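Total RNA (100 ng per array, per the labels' protocols) was read on Affymetrix arrays. The labels describe a whole-transcript assay, while the probe set names are of the 3′ kind, which was not resolved. The deposited table holds log2 signals. The submitters' processing notes list RMA, limma and R 3.0.2 among the authors' tools. RMA draws arrays to one distribution, so a change shared by most genes is not visible, and it compresses dim signals. The genome build is not given in the sources used here.

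Of 49395 probe sets, 44994 have 1 symbol in the platform annotation. Where a gene had several, the one brightest on average across the study was kept, giving 18132 genes. Group means for 6 groups were fitted in limma 3.58.1 (R 4.3.3, with the data.table package 1.17.8) over the 18 arrays, with eBayes and two-sided p adjusted over all genes. A call is an adjusted p under 0.05. Errors of differences are the model's SE. The model was tested on simulated data. Figures and promoter searches used Python 3.11.15, pandas 2.3.3 and matplotlib 3.10.9.

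The members and the 34 gene lists (598 genes, 556 of them measured, the rest not analysed here) were chosen with earlier results of these data known. Named genes are the 15 largest rises and 15 largest falls without overlap, of each list up to 8 called members by size and 3 others by signal, and a fixed set; others are marked. Not every gene so selected is printed. Alternatives were other sets of arrays, the replicate number as a block, other probe set rules, a signal filter, other scalings, a variance trend, leaving out each array, and the background mean as a covariate. Replicate numbers did not pair the arrays (correlations of deviations 0.06, 0.10 and -0.01).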

Additional observations from a re-analysis of the deposited data

How the results depend on the processing

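Of 337 genes followed under 17 alternatives, 212 kept their direction and call in all that gave a value, 92 lost a call in at least 1, 27 gained one and 10 reversed. When all probe sets of a gene were averaged, the values turned to -0.01 for TAPBP, -0.08 for TNFAIP2, -0.03 for EDEM1, 0.00 for HSPD1 and -0.42 for HSPA8. Without probe sets of shared or mixed sequence they turned to -0.31 for TNFAIP2, -0.57 for HSPD1, -0.09 for NDRG1, -0.13 for ALDOC, -0.22 for SDHA, -0.34 for VNN1 and -0.09 for SLC3A1; a different probe set then stands for the gene. The calls over all genes numbered 7653 with every probe set as its own entry (4565 higher and 3088 lower, since more entries were tested) and 2052 with the background covariate (1150 higher and 902 lower). At 2-fold or more there were 44 with the mean of probe sets and 138 with every probe set. Of the 556 measured genes of all lists 226 were called, beside 22.2% of all genes. With the background covariate 147 were called, where 2052 of 18132 genes were, and 8 enterocyte genes were called higher. Leaving out 1 array gave 2309 to 4171 calls, 1399 to 2076 higher and 910 to 2095 lower, 71 to 80 at 2-fold, 163 to 200 list members, 10 to 12 sensors, 30 to 32 interferon-stimulated genes, 7 to 10 antigen presentation genes and 9 to 12 enterocyte genes higher, and 8 to 11 early response genes lower. With the replicate block 2033 genes were called higher and 1856 lower; the numbers do not pair the arrays. Precision is limited by 3 arrays a group and, for dim genes, by signal near background.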
